A study of Homo sapiens with 6 samples.

Results

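The CXXC genes examined here encode proteins that recognize CpG islands through a CXXC zinc finger. They were chosen by symbol, as the 10 genes *CXXC1*, *CXXC4*, *CXXC5*, *KDM2A*, *KDM2B*, *KMT2A*, *KMT2B*, *TET1*, *TET3* and *FBXL19*, out of 20347 gene symbols in the expression table. All 10 were listed and had reads in every library. The study knocked out *SAMD1*, whose product binds unmethylated CpG islands through a winged helix domain instead, in PaTu8988t, an established human cell line of pancreatic ductal adenocarcinoma (PDAC). RNA-seq was performed on 3 Control libraries and 3 SAMD1 KO libraries. Control cells received the Lenti-CRISPR V2 plasmid with an unspecific control guide, and SAMD1 KO cells received the same plasmid with guides against *SAMD1*. Both carried Cas9 and were selected with puromycin. Each SAMD1 KO library came from a clonally independent knockout clone, while the labels call the Control libraries only replicates. The question addressed was whether the genes of the other family of CpG island readers changed in expression when SAMD1 was lost. The p-values measure the spread between these libraries, which for the Control may be technical.

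CpG islands are stretches rich in unmethylated CpG at many promoters. The CXXC zinc finger binds unmethylated CpG and so brings enzymes to these promoters. KMT2A, KMT2B and the SETD1 complexes, which CXXC1 targets, methylate histone H3 at lysine 4 (H3K4), a mark of active promoters. KDM2A and KDM2B are F-box proteins that demethylate H3K36, and KDM2B also brings the variant Polycomb complex PRC1.1 to CpG islands. FBXL19 is their F-box relative without a demethylase domain. TET1 and TET3 oxidize methylated cytosine, which starts DNA demethylation. CXXC4 and CXXC5 are short proteins that bind Dishevelled and inhibit WNT signaling.

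The promoters of the family differ in CpG content. Over the 26 RefSeq windows of the 10 genes the median was 15.5 CpG per 250 bases, with several windows for some genes. In the 10 windows nearest the canonical starts, 1 per gene, it was 26.5. It was 20 in the windows of tested genes and 11 in all windows. The windows shown ranged from 9 CpG for *TET1* and 11 for *CXXC4* to 30 for *CXXC5* and 40 for *KDM2A*. The 250 bases before the RefSeq start nearest to each gene's canonical start are shown for 4 genes (assembly GRCh38.p14, each on the strand of its gene, 5′ to 3′): the 3 whose mean was furthest above Control in the knockout, *CXXC5* (chr5:139648099-139648348, plus strand), *CXXC4* (chr4:104494895-104495144, minus strand) and *TET1* (chr10:68560087-68560336, plus strand), and *KDM2A* (chr11:67119013-67119262, plus strand), whose libraries were all below Control. Capitals mark GCGC, which the study names as the motif enriched at SAMD1-bound CpG islands. It reads the same on both strands, and overlapping matches were counted.
CXXC5: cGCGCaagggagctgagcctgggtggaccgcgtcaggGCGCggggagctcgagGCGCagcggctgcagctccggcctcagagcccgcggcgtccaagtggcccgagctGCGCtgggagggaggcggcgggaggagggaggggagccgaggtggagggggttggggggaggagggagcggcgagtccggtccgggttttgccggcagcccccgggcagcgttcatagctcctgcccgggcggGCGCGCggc
CXXC4: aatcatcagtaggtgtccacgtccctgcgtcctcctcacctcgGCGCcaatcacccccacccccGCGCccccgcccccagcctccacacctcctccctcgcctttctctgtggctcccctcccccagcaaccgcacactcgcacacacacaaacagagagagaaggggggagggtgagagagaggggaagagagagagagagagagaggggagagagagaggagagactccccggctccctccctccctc
TET1: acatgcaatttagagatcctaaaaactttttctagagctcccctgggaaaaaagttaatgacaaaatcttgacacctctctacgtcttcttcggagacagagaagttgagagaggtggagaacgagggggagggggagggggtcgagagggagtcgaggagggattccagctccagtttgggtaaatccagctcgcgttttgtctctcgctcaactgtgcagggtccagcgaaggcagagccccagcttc
KDM2A: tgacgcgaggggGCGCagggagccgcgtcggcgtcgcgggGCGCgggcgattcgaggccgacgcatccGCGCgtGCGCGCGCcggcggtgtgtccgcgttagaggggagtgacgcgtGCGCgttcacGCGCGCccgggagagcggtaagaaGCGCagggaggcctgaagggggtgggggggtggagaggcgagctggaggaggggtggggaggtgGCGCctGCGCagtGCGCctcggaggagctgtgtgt

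GCGC occurred 6 times in this window of *CXXC5*, 2 times in that of *CXXC4*, 0 times in that of *TET1* and 13 times in that of *KDM2A*. Among the other members it occurred 5 times in the window of *KMT2B*, 4 times each for *KMT2A* and *CXXC1*, 2 times each for *TET3* and *KDM2B*, and 0 times for *FBXL19*. In all, 8 of the 10 windows (80.0%) held it. Over every RefSeq start of the 10 genes it was 20 of 26 windows (76.9%), beside 53.4% of all 35116 RefSeq windows of this length and 75.6% of the 15121 windows of genes tested here. The count in *KDM2A* was reached or undercut by 99.4% of the windows of tested genes, and that in *CXXC5* by 88.0%. *CXXC5* has 7 RefSeq starts, and 3 of their windows held the motif. *TET1* has 3 starts, and 2 of their windows held it, 2 times each. Of the 4 windows shown, that of *KDM2A* held the most matches and that of *TET1* none. Whether the motif bears on the changes was not tested. These matches describe the sequence, and SAMD1 binding was not analyzed here.

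Library totals ran from 35589477 to 45172216 reads. The targeted gene *SAMD1* (chr19:14087851-14091036) had 2231, 2382 and 2299 normalized counts in Control 1 to 3 and 874, 1082 and 825 in SAMD1 KO clones 1 to 3. Its log2 fold change was -1.32 ± 0.10 (SE, adjusted p = 0.000724), so transcript was reduced in 3 of 3 clones and not absent. The epithelial keratins *KRT8* and *KRT18* were high in all libraries, although *KRT19*, a usual ductal marker, had no reads in any library. The summed level of the 5 epithelial markers was 62681 to 65891 in Control and 67617 to 108553 in SAMD1 KO. *KRT7* (2.79-fold, adjusted p = 0.00392, at low levels of 26 to 105 reads a library) and *KRT18* (1.45-fold, adjusted p = 0.0598) were called higher. *KRT8* (1.32-fold, adjusted p = 0.195) and *EPCAM* (0.968-fold, adjusted p = 0.804) were not called. Of the leukocyte markers, *CD3E* had no reads, *PTPRC* and *LYZ* had at most 6 in a library, and *CD68* had 353 to 368 normalized counts in Control and 242 to 326 in SAMD1 KO. The 5 fibroblast markers summed to 55.8 to 58.4 and 33.3 to 59.6, with *DCN* and *LUM* at 0. *PDGFRA* was higher (4.50-fold, adjusted p = 0.0139, called) at low levels, 3 to 24 reads a library. *COL1A1* was 0.517-fold (adjusted p = 0.0980, not called). The 5 endothelial markers summed to 89.2 to 98.5 and 36.6 to 89.9, with *CDH5* at 0.322-fold (adjusted p = 0.0748, not called). The part of these differences in the results below was not tested.

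In the limma fit used here, only *CXXC5* of the 10 genes passed the cut-off of the study. This was a log2 fold change beyond 0.5 with an unadjusted p below 0.01, which the study applied to DESeq2. *CXXC5* was up-regulated in the SAMD1 KO clones. *CXXC4* and *TET1* had larger mean differences from far lower levels, with unadjusted limma p-values above 0.01. The other 7 genes, expressed at Control means of 1604 to 7301 normalized counts, had log2 fold changes from -0.14 to 0.14. For these 7 genes the 95% intervals reached at most from -0.38 to 0.36 on the log2 scale, which corresponds to folds of 0.766 and 1.28. In the limma fit over 12773 genes on log2(normalized count + 1), 1 of 10 genes was thus called higher, beside 5.77% of all tested genes, and 0 of 10 were called lower, beside 2.08%. By edgeR 1 of 10 was called higher and by DESeq2 2 of 10, beside 779 and 830 of all tested genes. DESeq2 added *CXXC4* (log2 fold change 1.25, adjusted p = 0.0472). By edgeR and DESeq2, 0 of 10 were called lower as well, beside 247 and 265 of all tested genes. In either direction limma called 7.85% of all tested genes. With an adjusted p below 0.05 in place of the unadjusted one, *CXXC5* was again the 1 gene of 10, beside 7.21% of all tested genes. At an unadjusted p below 0.05, 3 of the 10 were higher and 1 was lower (16.1% and 13.5% of all tested genes), which is 4 of 10 beside 29.6% in either direction. The 6 libraries separated without overlap for 3 genes that were higher (19.2% of all tested genes) and 1 that was lower (18.6%), beside 37.8% in either direction. The median log2 fold change of the 10 genes was -0.037, beside -0.0059 over all tested genes.

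**Figure D1:**
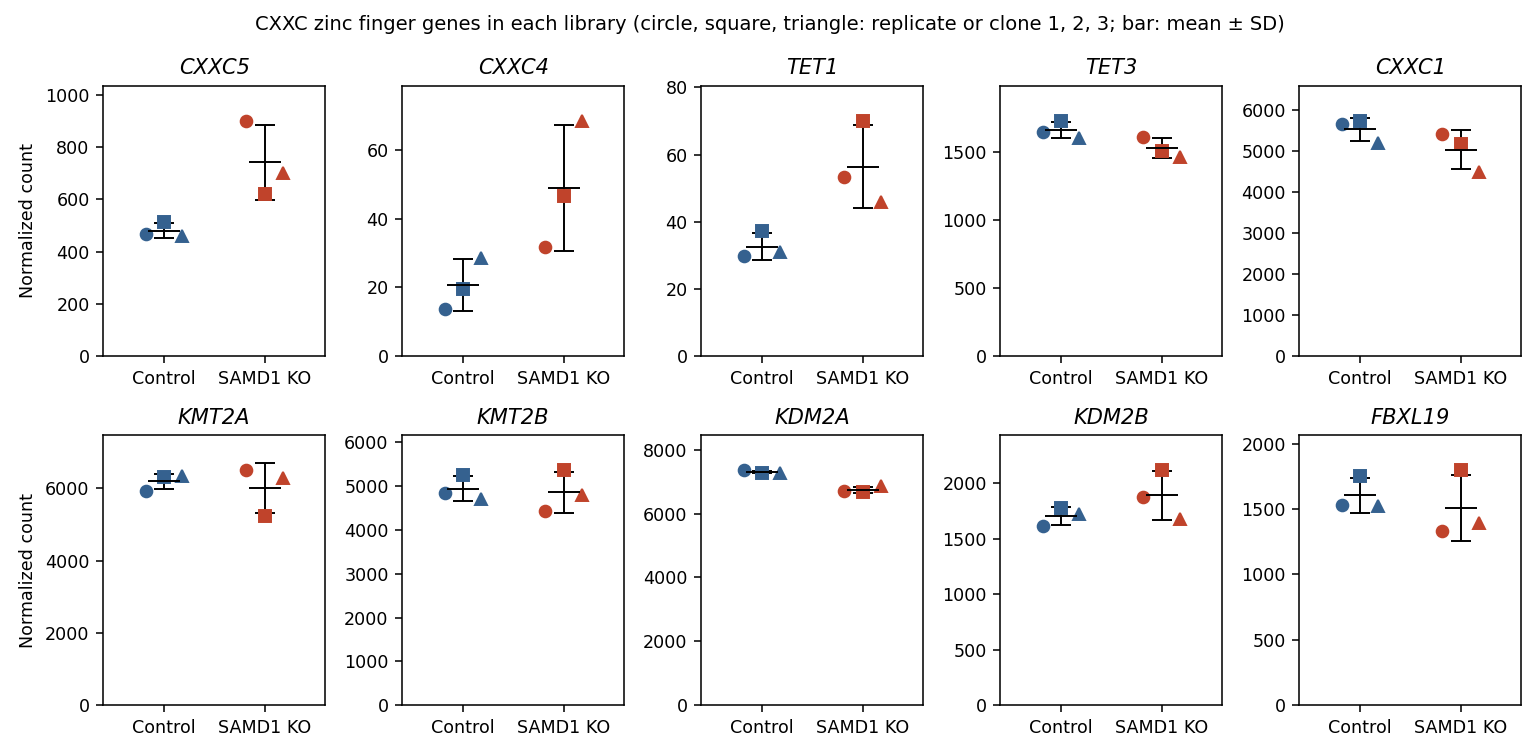
Normalized count (y axis, from 0) of each of the 10 CXXC genes in the 3 Control libraries (blue) and the 3 SAMD1 KO clones (red); symbols mark replicates or clones 1 to 3 and bars the mean ± SD (n = 3). The red points lie wholly above the blue ones for *CXXC5*, *CXXC4* and *TET1*, wholly below for *KDM2A*, and overlap with them in the other 6 genes.

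Of the members that bind Dishevelled, *CXXC5* (chr5:139647299-139683882, plus strand) had 468, 514 and 460.5 normalized counts in Control 1 to 3 and 899.8, 622 and 702 in SAMD1 KO clones 1 to 3. Every clone was above every Control library, and clone 1 was the highest. The mean went from 481 ± 28.8 to 741 ± 142.9 (SD, n = 3 each), 1.54-fold. Its log2 fold change was 0.61 ± 0.14 (SE) with an adjusted p of 0.0319, and it was higher in 3 of 3 clones. The call did not hold without Control 1 (adjusted p = 0.134), Control 3 (adjusted p = 0.131) or clone 1 (log2 fold change 0.46, below the fold cut-off), and it held without each of the other 3 libraries and in 11 of 11 other settings. Leaving out 1 library at a time gave log2 fold changes from 0.46 to 0.73. The direction could not change in these fits, because every clone was above every Control library. In bulk RNA, more cells with the transcript and more transcript per cell cannot be told apart.

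*CXXC4* (chr4:104468308-104494901, minus strand) had only 13.7, 19.6 and 28.6 normalized counts in Control 1 to 3, and 31.6, 46.7 and 68.4 in the clones. Here the groups touched closely, with 28.6 in the highest Control and 31.6 in the lowest clone, and the highest clone was clone 3. The mean went from 20.6 ± 7.51 to 48.9 ± 18.5 (SD, n = 3 each), 2.37-fold. The log2 fold change was 1.20 ± 0.37 (SE), the largest of the 10, with an adjusted p of 0.0782, and it was not called because its unadjusted p was above 0.01. Its interval ran from 0.33 to 2.06, and no library held more than 76 reads of it. *CXXC4* passed the cut-off in 3 of 10 other settings (a replicate block, DESeq2 and the regional median subtracted) and when Control 3 or clone 1 was left out, with log2 fold changes of 1.45 and 1.47. Without Control 1 it was 0.95 (adjusted p = 0.252) and without clone 3 it was 0.92 (adjusted p = 0.142). Per kb of exon, *CXXC5* exceeded *CXXC4* in all 6 libraries.

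Of the dioxygenases, *TET1* (chr10:68560337-68694487, plus strand) was scarce and *TET3* was not. *TET1* had 29.7, 37.2 and 30.9 normalized counts in Control 1 to 3 and 53.4, 70.0 and 45.9 in the clones. All clones exceeded all Control libraries, with clone 2 the highest. The mean went from 32.6 ± 4.0 to 56.4 ± 12.3 (SD, n = 3 each), 1.73-fold. The log2 fold change was 0.76 ± 0.23 (SE) with an adjusted p of 0.0704, and *TET1* was not called for the same reason. It passed the cut-off when clone 3 was left out (0.89, adjusted p = 0.0464) and with the regional median subtracted (0.77, adjusted p = 0.0554). Without clone 2 it was 0.59 (adjusted p = 0.135), and without Control 1 the adjusted p was 0.234. *TET3* (chr2:73984910-74108176, plus strand) had 1651, 1728 and 1607 normalized counts in Control and 1611, 1510.2 and 1467 in the clones, and its lowest values were in the clones, with clone 1 inside the Control range. Its log2 fold change of -0.12 ± 0.064 (SE) had an adjusted p of 0.256 and an interval of -0.27 to 0.030.

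**Figure D2:**
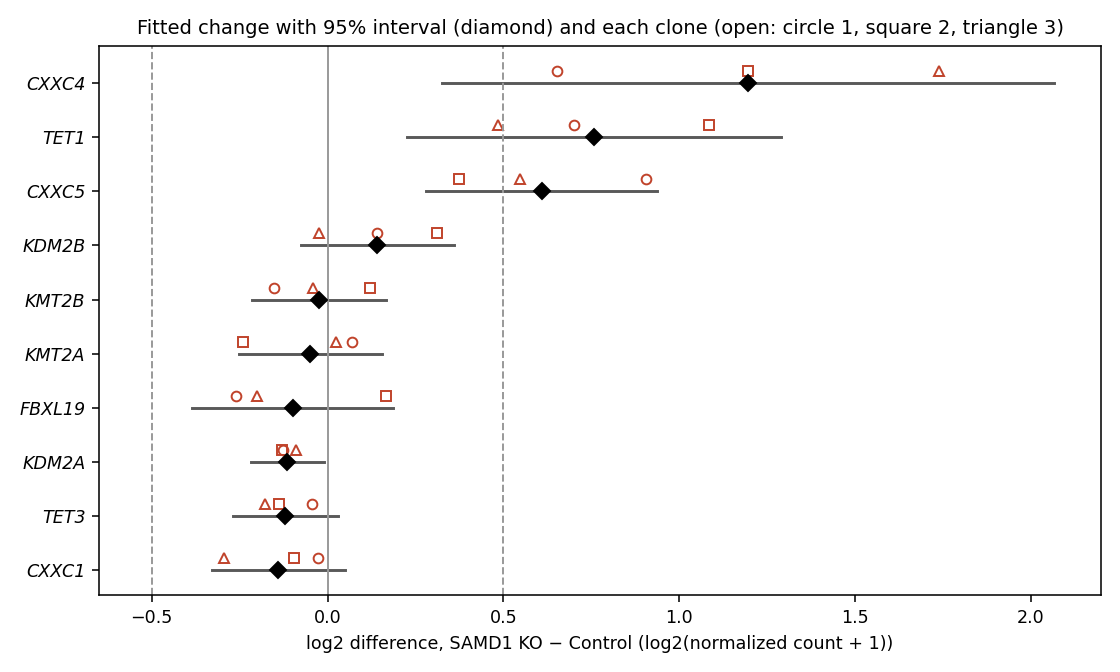
Fitted log2 difference between SAMD1 KO and Control with its 95% interval (diamond and line) and the difference of each clone from the Control mean (open symbols) for the 10 CXXC genes; dashed lines mark the fold cut-off of 0.5 in either direction. The intervals of *CXXC4*, *TET1* and *CXXC5* lie wholly above 0 with clones scattered over 0.37 to 1.74, and those of the other genes stay inside the dashed lines.

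The genes of the H3K4 methyltransferases did not pass the test. *KMT2A* (chr11:118436456-118526832), which encodes the founding MLL enzyme, had 5939, 6303 and 6334 normalized counts in Control and 6499, 5236 and 6299 in the clones. Clone 2 was the lowest and clone 1 the highest of all 6 libraries, and the log2 fold change was -0.049 ± 0.087 (SE, adjusted p = 0.749). *KMT2B* (chr19:35717973-35738880), its closest relative, had 4849, 5256 and 4706 in Control and 4438, 5358 and 4789.6 in the clones. The clones spanned the whole Control range, with clone 2 the highest here, and the log2 fold change was -0.025 ± 0.081 (SE, adjusted p = 0.868). *CXXC1* (chr18:50282343-50287839, minus strand), the CpG-binding subunit of the SETD1 complexes, had 5643, 5719 and 5186 in Control and 5404, 5160.4 and 4489 in the clones. Clone 1 lay inside the Control range and clone 3 was the lowest library, with a log2 fold change of -0.14 ± 0.081 (SE, adjusted p = 0.291). In *KMT2A*, 18.3% of the exon sequence is shared with a gene annotated on the same strand that was not in the table, so its reads may be incomplete.

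Among the F-box members, *KDM2A* (chr11:67119263-67258082) had the smallest spread among replicates of the 10 genes in either group, with 7350.5, 7282 and 7270.3 normalized counts in Control 1 to 3 and 6690.4, 6677 and 6859 in the clones. All clones were below all Control libraries, and the replicates of each group lay close together. The log2 fold change was -0.11 ± 0.044 (SE), 0.923-fold, with an adjusted p of 0.136, so it passed neither the fold nor the p cut-off. *KDM2B* (chr12:121429096-121581023, minus strand) had 1619.7, 1779 and 1726 in Control and 1881, 2117 and 1677 in the clones, where clones 1 and 2 were above Control and clone 3 inside its range. Its log2 fold change was 0.14 ± 0.093 (SE, adjusted p = 0.348). *FBXL19* (chr16:30923055-30948783) had 1529, 1755 and 1527 in Control and 1336, 1795 and 1391 in the clones. Clones 1 and 3 were below Control and clone 2 above it, and the log2 fold change of -0.099 ± 0.12 (SE, adjusted p = 0.633) was smaller than this spread. It ran from -0.23 without clone 2 to -0.018 without clone 1, and with the GC trend removed it was -0.19 ± 0.049 (SE, adjusted p = 0.0435), short of the fold cut-off. Exons of *KDM2B* overlap *RNF34* on the opposite strand over 3.22% of their length, those of *KDM2A* an antisense RNA over 6.54%. The strand setting of the counting is not given in the sources used here, so a small share of these reads cannot be assigned.

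Levels between genes were compared per length, as normalized counts per kb of exon. In Control, *CXXC1* was the highest at 1431 ± 74.8 per kb (SD, n = 3), followed by *KDM2A* at 703 ± 4.16, *KMT2B* at 457 ± 26.4, *FBXL19* at 329.7 ± 27.0 and *KMT2A* at 197 ± 6.99. Each of these 5 was separated from the next by ranges that did not overlap. *TET3* at 128 ± 4.73, *CXXC5* at 127 ± 7.59 and *KDM2B* at 125 ± 5.94 overlapped with each other in Control. *TET1* at 3.39 ± 0.42 and *CXXC4* at 2.54 ± 0.93 overlapped as well, and *CXXC1* was 562-fold above *CXXC4*. In SAMD1 KO the first 4 kept their places. *CXXC5* moved from place 7 to place 5 with 195 ± 37.7 per kb, beside 191 ± 21.6 for *KMT2A*, and the ranges of these neighbors overlapped. *TET1* and *CXXC4* remained far below the rest, at 5.87 ± 1.28 and 6.03 ± 2.28.

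**Figure D3:**
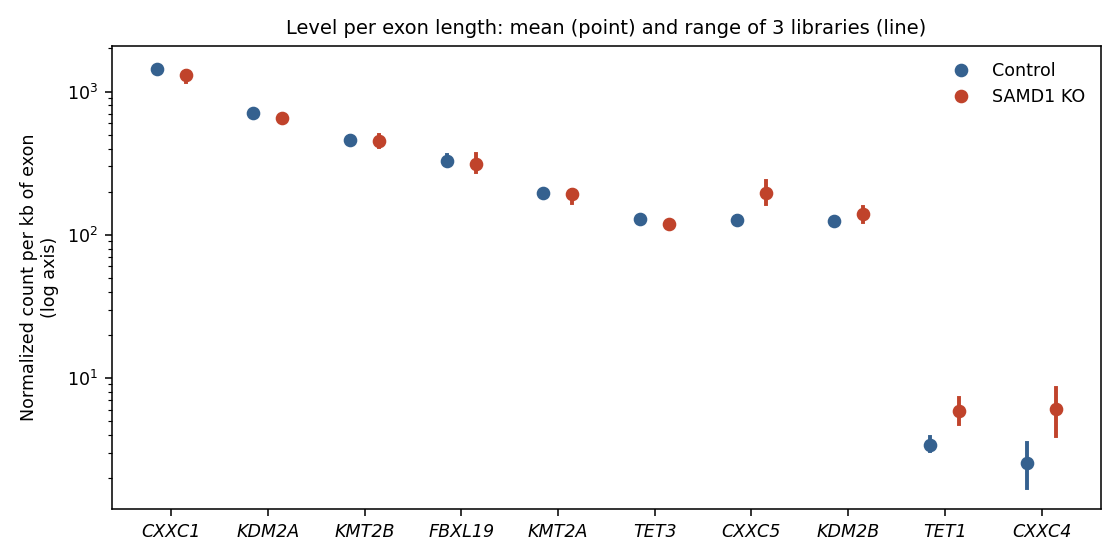
Normalized count per kb of exon (log axis) for each CXXC gene in Control (blue) and SAMD1 KO (red); points are means and lines the range of 3 libraries, ordered by the Control mean. The 8 genes from *CXXC1* to *KDM2B* lie above 100 per kb in both groups, and *TET1* and *CXXC4* lie below 10.

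Because a ratio between relatives within a library does not depend on the scaling of that library, the balance of 4 pairs was compared. With 3 libraries a group, the smallest p of the exact two-sided permutation test is 0.1, so no pair could pass 0.05. *TET1* to *TET3* was 0.0201 in Control and 0.0370 in SAMD1 KO, a difference of 0.88 in the mean log2 ratio (exact p = 0.1, adjusted p over 4 pairs = 0.2). *KDM2A* to *KDM2B* was 4.28 and 3.58, a difference of -0.26 (exact p = 0.1, adjusted p = 0.2). In these 2 pairs the groups did not overlap. *CXXC4* to *CXXC5* was 0.0432 and 0.0649 (difference 0.59, exact p = 0.3, adjusted p = 0.4), and *KMT2A* to *KMT2B* was 1.26 and 1.23 (difference -0.024, exact p = 0.9, adjusted p = 0.9), both with overlapping groups. When 1 library was left out, the difference ran from 0.29 (without clone 3) to 1.01 (without clone 1) for *CXXC4* to *CXXC5*, with 0.36 without Control 1, and from -0.35 to -0.17 (without clone 2) for *KDM2A* to *KDM2B*.

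The clones differed among themselves more than the Control libraries did. The SD of the log2 values was larger in SAMD1 KO than in Control for 10 of the 10 genes, beside 82.8% of all tested genes. The clone with the highest value was clone 1 for *CXXC5*, clone 2 for *TET1* and clone 3 for *CXXC4*, so these genes were not raised most in the same clone. To see whether the stretch of chromosome around a gene moved with it, the median log2 difference from Control over up to 40 neighboring tested genes was taken in each clone. Around *CXXC5* it was -0.024, -0.57 and -0.033 in clones 1 to 3, while the gene itself differed by 0.90, 0.37 and 0.55. The clone with the smallest rise of *CXXC5* was thus the one in which its neighbors were lowest. With the regional median subtracted, *CXXC5* had a log2 fold change of 0.82 ± 0.11 (SE, adjusted p = 0.00272). Around *CXXC4* and *TET1* the neighbors differed by only -0.044 to 0.0093 over the 3 clones. Around *KMT2A* they differed by -0.21, -0.12 and -0.076, and its log2 fold change became 0.090 with the regional median subtracted (adjusted p = 0.549). What lies behind the lower neighbors of *CXXC5* in clone 2 was not tested.

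**Figure D4:**
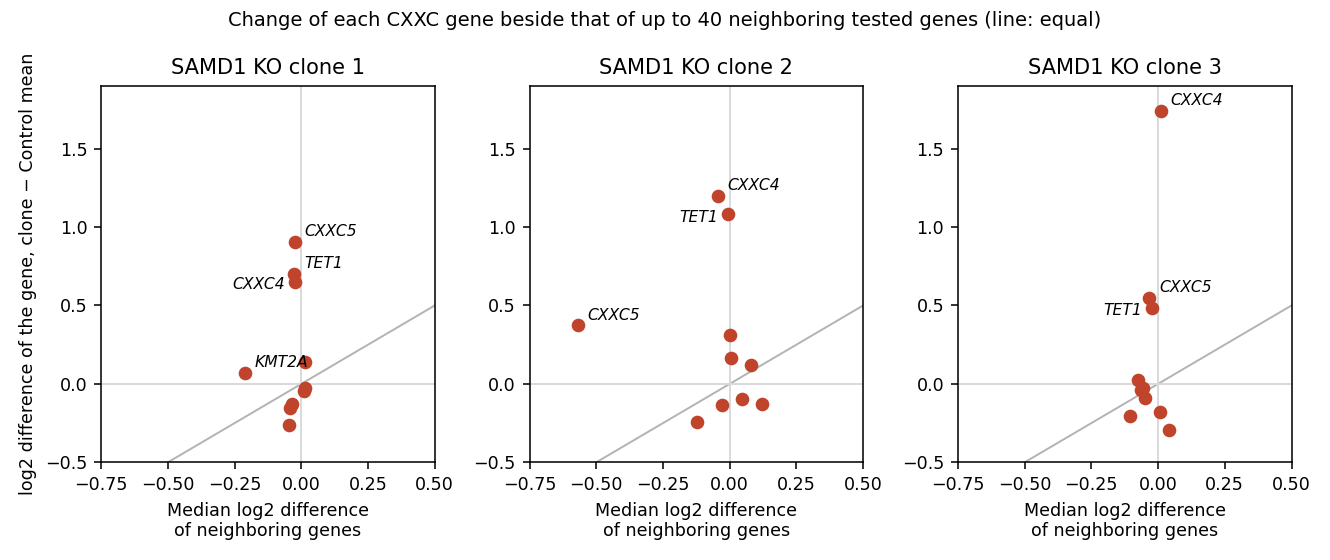
Log2 difference of each CXXC gene from the Control mean (y axis) against the median log2 difference of up to 40 neighboring tested genes (x axis), by SAMD1 KO clone; on the gray line both are equal. *CXXC5* in clone 2 stands to the left at -0.57, and *CXXC4* and *TET1* lie near 0 on the x axis in all clones.

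The 38 genes whose products work with the CXXC proteins, share their substrates or read CpG islands by other means were mostly below 0 by small amounts. With *SAMD1* left out of the list of other CpG island readers, 1 of 38 was called higher and 0 were called lower (5.77% and 2.08% of all tested genes), and at an unadjusted p below 0.05 the counts were 1 and 7 (16.1% and 13.5% of all tested genes). Their median log2 fold change was -0.057, with 29 of 38 below 0, beside 6546 of all 12773 tested genes. The groups did not overlap for 2 higher and 10 lower genes of the 38, beside 19.2% and 18.6% of all tested genes. In edgeR and DESeq2 on the recovered reads, 1 of 38 was also called higher, beside 779 and 830 of all tested genes. Called lower were 0 of 38, beside 247 and 265. An adjusted p below 0.05, regardless of fold, was reached by 1 higher gene and 4 lower genes, beside 13.0% of all tested genes in either direction and 4.7% that were lower.

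The called gene was *BCOR* (chrX:40049815-40177329), a subunit of PRC1.1, the complex that KDM2B brings to CpG islands. It had 1985, 1974 and 2021 normalized counts in Control and 3112, 2895 and 2809 in the clones, 1.47-fold, with a log2 fold change of 0.56 ± 0.058 (SE, adjusted p = 0.00189). The Control libraries and the clones were far apart. Its neighbors on the X chromosome were higher as well, by a median of 0.39, 0.40 and 0.44 in clones 1 to 3, and with this regional median subtracted its log2 fold change was 0.16 (adjusted p = 0.117), which was no longer called. Of the other 10 genes for PRC1.1 and the F-box ligase, *USP7*, a deubiquitinase, had -0.16 (adjusted p = 0.0739) and *RYBP*, a PRC1 subunit, 0.11 (adjusted p = 0.230).

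In the DNA methylation cycle all 6 genes had values below 0, with a median of -0.20, and 0 were called by limma, with 3 lower at an unadjusted p below 0.05. Over all tested genes 6546 of 12773 were below 0, 2.08% were called lower and 13.5% were lower at that p. This list leaves out *TET1* (0.76) and *TET3* (-0.12), which were counted among the 10 CXXC genes. It also leaves out *DNMT1* (-0.11), which was listed with the other CXXC genes among the 38. *DNMT3B*, a de novo methyltransferase, had 809, 764 and 762 normalized counts in Control and 578, 613 and 586 in the clones (log2 fold change -0.39 ± 0.072 SE, adjusted p = 0.0147). The clones were all below Control, by less than the fold cut-off. *TDG*, the glycosylase that removes TET products, had -0.27 ± 0.064 (SE, adjusted p = 0.0366), and *OGT*, a binding partner of TET proteins, -0.22 ± 0.063 (adjusted p = 0.0592). Without 1 library at a time the adjusted p of *DNMT3B* stayed below 0.05 in 3 of 6 fits, and that of *TDG* in 2 of 6. Of the 2 other CXXC genes, *MBD1*, which lies beside *CXXC1* on chromosome 18, had -0.23 ± 0.057 (SE, adjusted p = 0.0416, below 0.05 in 2 of 6 such fits), and *DNMT1*, the maintenance methyltransferase, -0.11 ± 0.058 (adjusted p = 0.239). Of the 5 other CpG island readers, the Polycomb-like genes *PHF1* and *MTF2* had -0.25 ± 0.063 (adjusted p = 0.0427, below 0.05 in 1 of 6 such fits) and -0.23 ± 0.077 (adjusted p = 0.0942), with every clone below every Control library in each.

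The partners of the H3K4 methyltransferases gave 0 called genes of 11 in limma, beside 7.85% of all tested genes, and 0 at an unadjusted p below 0.05, beside 29.6%. The smallest p-values belonged to *WDR5*, a core subunit (-0.20 ± 0.10 SE, adjusted p = 0.233), *SETD1A*, the enzyme that CXXC1 targets (-0.14 ± 0.080, adjusted p = 0.279), and *DPY30*, another core subunit (-0.11 ± 0.090, adjusted p = 0.442). For *WDR5* every clone was below every Control library, as in 18.6% of all tested genes. With the regional median subtracted it had -0.20 ± 0.053 (SE, adjusted p = 0.0375), short of the fold cut-off. In that fit the adjusted p was 0.375 for *SETD1A* and 0.271 for *DPY30*. The Dishevelled genes, whose products CXXC4 and CXXC5 bind, gave log2 fold changes of 0.15 ± 0.14 (SE, *DVL1*, adjusted p = 0.508), 0.061 ± 0.067 (*DVL2*, 0.584) and -0.015 ± 0.058 (*DVL3*, 0.890). None of these 3 was called, and their groups overlapped.

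**Figure D5:**
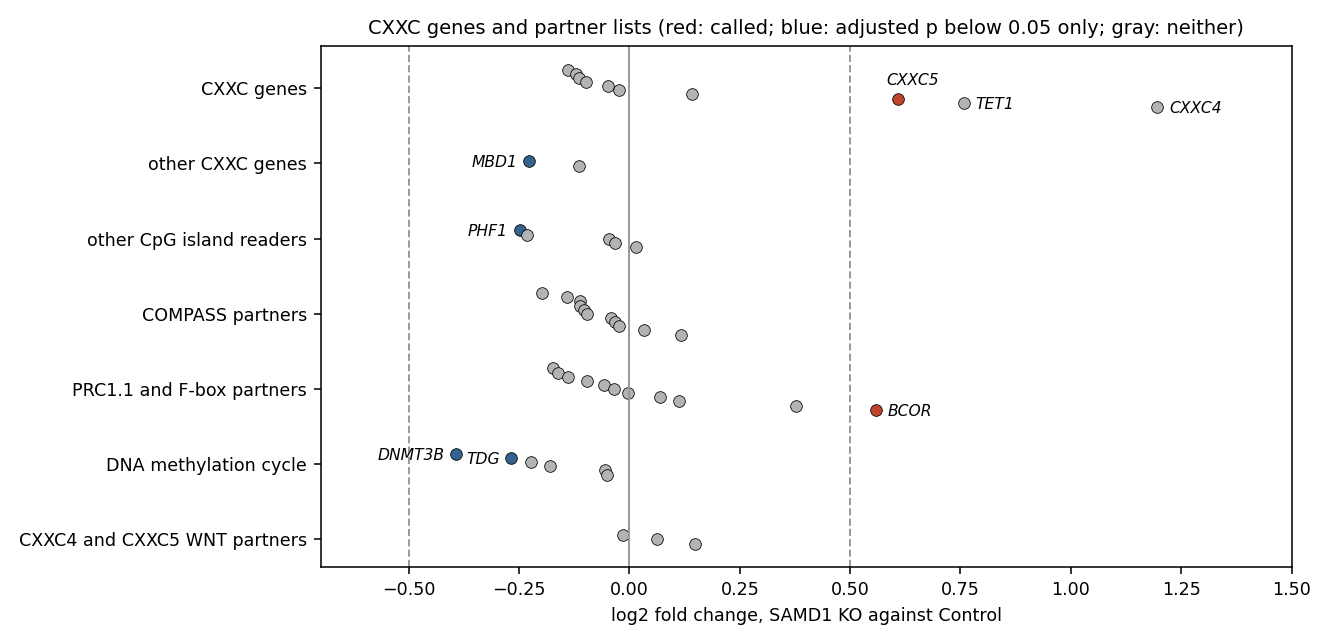
Log2 fold change (x axis, SAMD1 KO minus Control) of the 10 CXXC genes and the 38 partner genes, 1 point per gene and 1 row per list; red marks called genes, blue an adjusted p below 0.05 without the fold, and dashed lines the fold cut-off of 0.5. *CXXC5* and *BCOR* are the called genes, and *CXXC4* and *TET1* lie beyond the fold cut-off without the p-value.

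The genes whose log2 values over the 6 libraries were most like those of *CXXC5*, the CXXC gene with the smallest p, were *MACO1* (Pearson's r = 0.993), *PYGB* (r = 0.987) and *NAV2* (r = 0.985). They were the closest of all tested genes, and all share the same libraries and the same division into groups, so the values describe a pattern only. *NAV2* had 57.2 to 61.9 normalized counts in Control and 309.5, 107 and 186 in the clones, with the clones in the same order as for *CXXC5*, and was called higher (log2 fold change 1.59 ± 0.35 SE, adjusted p = 0.0274). *MACO1* and *PYGB* were higher by 0.29 and 0.31 on the log2 scale in the mean and were not called.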

How the data were processed

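The authors aligned RNA-seq reads of 3 Control and 3 SAMD1 KO libraries with RNA-STAR, counted them per gene (featureCounts on hg38, per the submitters' processing notes) and divided them by DESeq2 size factors. The deposited signal is this normalized count, and 0 sample columns were left unused. The authors' DESeq2 comparison (fold changes, errors, p-values) was not used. Whole reads were recovered from the value of 1 read (100% whole within 0.01 read).

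Genes with a mean of at least 10 (12773 of 20347) were compared on log2(normalized count + 1) with limma 3.58.1 (eBayes with trend, two-sided) in R 4.3.3, which understates folds of low genes. Calls needed an absolute log2 fold change above 0.5 and p below 0.01, and the Benjamini-Hochberg adjustment ran over all tested genes. Counting error matters for *CXXC4* and *TET1* (12 to 81 reads a library). Positions are from GENCODE 44. The fit was tested on simulated data with the same dispersion in both groups and changes only in genes with a mean of at least 50. It therefore did not cover the wider spread among the clones or the low levels of *CXXC4* and *TET1*.

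The members and lists were chosen with earlier results of these data known. Named were the 10 members, *SAMD1*, each list's called genes and 3 smallest p-values, and the 3 genes most like the member with the smallest p. Alternatives were pseudocounts of 0.1 and 10, no filter or a mean of at least 50, 75th percentile scaling, leaving out each library, a replicate block, edgeR 4.0.16 and DESeq2 1.42.0 on recovered reads, an adjusted p below 0.05, and removal of the GC trend or of the median of 20 tested genes on each side. CXXC domain sequences were not analyzed here. A leukocyte marker is not reported here.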

Additional observations from a re-analysis of the deposited data

How the results depend on the processing

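The count of CXXC genes called higher was 1, and it was 2 with DESeq2 (*CXXC4* added, adjusted p = 0.0472) and 3 with the regional median subtracted (*CXXC4* and *TET1* added). When 1 library was left out it was 0 to 2, with 0 without Control 1 and 2 without clone 3 (*TET1* added). Without Control 3 or clone 1 the 1 called gene was *CXXC4*, and *CXXC5* was not called. Partner genes called higher went from 1 to 0 with the regional median subtracted, where *BCOR* was lost. When 1 library was left out, *KMT2B* ran from -0.097 to 0.039 (0.021 without Control 2, 0.039 without clone 1) and *KMT2A* from -0.11 to 0.048 (the latter without clone 2), and *KMT2A* was 0.090 with the regional median subtracted. The difference in the *KMT2A* to *KMT2B* balance ran from -0.15 to 0.14 when 1 library was left out. Over all genes, 568 to 862 were called higher and 180 to 370 lower when 1 library was left out. In the main fit 737 genes were called higher, with DESeq2 830 and with the regional median subtracted 765. The cause of these changes was not tested. *CXXC4* and *TET1* fell below the filter at a mean of at least 50.

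With the replicate number as a block, 2 CXXC genes were called higher, *CXXC5* (adjusted p = 0.0551) and *CXXC4* (adjusted p = 0.0363). To compare the sample numbers, the mean of its group was first subtracted from each log2 value, gene by gene. In these deviations, samples with the same number correlated at 0.039, 0.13 and 0.032, and those with different numbers at -0.074 to 0.036. Controls 1 and 2 correlated best with the clone of their own number, and Control 3 with clone 1 (0.036). These small values cannot decide whether the numbers pair the samples. No scaling moved the median of all genes by 0.1.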
